A study of Mus musculus with 20 samples.

Results

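The genes described here are 40 genes of DNA replication and mitosis, 22 that act before and during the copying of DNA and 18 that act in the entry into mitosis and the separation of chromosomes. They were listed by name, with earlier results of these data already known. A gene was taken as measured when the array carried a probe set annotated to it alone, and where it had several the brightest over all 20 arrays was used. This gave 39 of the 40 genes among 17097 measured genes, 22 of 22 replication genes and 17 of 18 mitosis genes. Ccnb1, which encodes cyclin B1, had no probe set of its own in the annotation used and has no value here.

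Levels were read in dermal fibroblasts of female mice, the collagen-producing cells of the skin, in 4 groups of 5 arrays, 1 mouse per array. The labels give them as biological replicates. The Young ND mice were 4 weeks old and had a normal diet, abbreviated ND, for 4 weeks, and the labels do not say whether that age is the one at the start or at collection. All other mice were 9 months old when the diets began and 18 months old at collection. Old ND mice had the normal diet for all 9 months. Old CR mice, whose label is ND/CR - Old, had 2 months of normal diet and then 7 months of 30% caloric restriction. Old CR-ND mice, labelled CR/ND - Old, had the same diets in the opposite order, so that they ended on 2 months of normal diet. The cells of every group were sorted from collagenase-digested skin, without the subdermis, as positive for Pdgfra and CD34 and negative for CD45, CD117, CD24, CD31 and EpCam, and 10000 cells gave the RNA of an array after 20 amplification cycles. Each array reads the bulk RNA of its sorted cells, in which a smaller share of dividing cells and less RNA per dividing cell cannot be told apart.

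A cell that will divide first loads the MCM helicase, a ring of the proteins Mcm2 to Mcm7, on its DNA with the help of Cdc6, and fires it with Cdc45 and the GINS complex. The sliding clamp Pcna, placed by the replication factor C loader, then holds the polymerases on the template, while thymidylate synthase and ribonucleotide reductase supply the nucleotides. Mitosis is driven by Cdk1 with cyclins A and B and by the Aurora and Polo kinases, and ends when the anaphase-promoting complex, activated by Cdc20, marks securin and cyclin B for destruction. Dermal fibroblasts of adult skin divide rarely, and the genes of mitosis are read in many tissues as markers of proliferation. Replication genes are often under E2F factors and genes of mitosis under the DREAM and B-MYB complexes, which bind the cell cycle homology region (CHR).

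The promoters of the members carry the letters of these sites to different extents. Windows from 250 bases before to 50 bases after a transcription start were taken from RefSeq on GRCm38.p6 and found for 32 of the 40 genes, 17 of replication and 15 of mitosis. Mcm7, Fen1 and Uhrf1 had 2 windows each, and a gene was counted when any of its windows held a match. They were searched on both strands for the E2F site (TTTCCCGC, TTTGGCGC, TTTCGCGC or TTTGCCGC), the CHR (TTTGAA) and the CCAAT box (CCAAT), and matches may overlap. An E2F match stood in 7 of 17 replication genes (41.2%), in 1 of 15 mitosis genes (6.67%), in 2.6% of the 27025 genes with a window and in 3.79% of the 13605 of them measured here. A CHR match stood in 3 of 17 replication genes (17.6%), 11 of 15 mitosis genes (73.3%), 20.2% of all genes and 15.6% of measured genes, so that the replication share lay between these backgrounds. In windows that begin 150 bases before the start the CHR counts of the members were the same, and the share was 12.8% of all and 9.31% of measured genes. CCAAT was present in 12 of 17 replication genes (70.6%), 14 of 15 mitosis genes (93.3%), 41.1% of all genes and 42.3% of measured genes. A match is a run of letters and not a measured binding site.

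The 250 bases before the start are printed for the replication genes Pcna, Rrm1 and Rfc3 and for Cdc20, because these genes account for 8 of the 12 differences that passed the test, and for Mki67 as the proliferation marker that did not pass. Capitals mark matches to the 3 motifs, on either strand. The windows lie at chr2:132253181-132253430 (minus strand) for Pcna, chr7:102441445-102441694 (plus strand) for Rrm1, chr5:151651209-151651458 (minus strand) for Rfc3, chr4:118437344-118437593 (minus strand) for Cdc20 and chr7:135716380-135716629 (minus strand) for Mki67, all on GRCm38.p6 from RefSeq. Each is written 5′ to 3′ along its gene and ends at the base before the start.
Pcna: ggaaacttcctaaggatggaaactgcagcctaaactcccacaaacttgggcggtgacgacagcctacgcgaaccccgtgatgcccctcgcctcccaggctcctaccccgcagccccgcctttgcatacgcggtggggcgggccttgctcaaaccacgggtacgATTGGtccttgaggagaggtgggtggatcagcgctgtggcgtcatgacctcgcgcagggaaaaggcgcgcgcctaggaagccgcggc
Rrm1: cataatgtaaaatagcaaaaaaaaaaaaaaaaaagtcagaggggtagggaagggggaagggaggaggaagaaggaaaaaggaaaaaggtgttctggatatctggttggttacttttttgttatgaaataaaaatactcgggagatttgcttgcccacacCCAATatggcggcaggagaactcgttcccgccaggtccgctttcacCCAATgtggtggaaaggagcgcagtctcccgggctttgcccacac
Rfc3: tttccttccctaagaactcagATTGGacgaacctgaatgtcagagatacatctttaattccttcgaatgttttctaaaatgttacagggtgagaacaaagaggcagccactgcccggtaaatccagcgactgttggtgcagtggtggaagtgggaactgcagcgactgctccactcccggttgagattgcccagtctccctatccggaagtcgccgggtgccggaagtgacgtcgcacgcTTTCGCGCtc
Cdc20: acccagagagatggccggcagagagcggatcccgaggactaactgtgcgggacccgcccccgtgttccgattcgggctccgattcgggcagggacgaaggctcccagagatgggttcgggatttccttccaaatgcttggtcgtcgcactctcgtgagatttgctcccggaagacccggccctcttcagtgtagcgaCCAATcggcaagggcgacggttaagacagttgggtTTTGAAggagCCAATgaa
Mki67: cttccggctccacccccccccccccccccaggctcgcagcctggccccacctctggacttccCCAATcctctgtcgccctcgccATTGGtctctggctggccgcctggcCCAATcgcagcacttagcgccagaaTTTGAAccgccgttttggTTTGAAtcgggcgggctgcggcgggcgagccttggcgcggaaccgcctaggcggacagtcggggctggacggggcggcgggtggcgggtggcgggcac
Pcna and Rrm1 showed CCAAT boxes and neither an E2F nor a CHR match among these letters. Rfc3 ended in an E2F match that begins 10 bases before the start, and another begins at the start itself. Counted with 0 at the start, Cdc20 had a TTTGAA match beginning at -18, between CCAAT boxes that begin at -53 and -8, and Mki67 had 2 TTTGAA matches, at -116 and -98. No window was found for Mcm4, the other gene with more than 1 passing difference.

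All values are log2 array levels, and a difference of 1 is a 2-fold change. The middle gene stood at 5.88, with the lower quartile at 4.54 and the upper quartile at 7.41. Replication genes were spread over the whole range: 14 of 22 lay above the median gene, 8 of them above the upper quartile, and 4 lay below the lower quartile. Only 3 of 17 mitosis genes lay above the median gene and none above the upper quartile. Levels of different genes come from different probes, so the counts describe where signals lay on this array and not how much RNA each gene had.

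The labelled cell type was checked first. The sorted-for gene Cd34 (group means 11.01 to 11.30) was well above the median gene, and Pdgfra (5.71 to 6.20) lay on both sides of it. Ptprc, which encodes CD45 (3.24 to 3.26), and Kit, which encodes CD117 (3.34 to 3.39), were far below it. Epcam (5.06 to 5.11) and Pecam1, which encodes CD31 (5.50 to 5.70), were below it too. In Young ND Pdgfra (5.71) and Pecam1 (5.70) read alike. Cd24a, which was sorted against, read 6.73 in Young ND, 5.56 in Old ND, 4.83 in Old CR and 5.43 in Old CR-ND and was lower in every old group than in Young ND (adjusted p 0.000691, 3.76e-06 and 0.000455, limma with Benjamini-Hochberg). The keratinocyte genes Krt5 (group means 8.69 to 9.36) and Krt14 (6.55 to 7.50) were clearly present, and the summed level of 11 keratinocyte genes ran over 66.0 to 77.5 in Young ND, 61.5 to 85.6 in Old ND, 69.4 to 75.5 in Old CR and 70.4 to 79.9 in Old CR-ND. The summed level of 5 pericyte and smooth muscle genes was 26.5 to 28.1 in Young ND, 27.6 to 29.0 in Old ND, 29.2 to 30.0 in Old CR and 28.6 to 29.6 in Old CR-ND. Of these 5 genes only Kcnj8, a potassium channel gene, passed, higher by 1.03, 2.32 and 1.62 than in Young ND (adjusted p 0.0168, 7.42e-06 and 0.000696), and the sum of the other 4 overlapped in all groups (21.2 to 22.1 in Young ND and 21.2 to 22.2 in the old groups). The sum of 10 genes of the hair matrix and follicle epithelium was 47.4 to 48.8 in Young ND, 46.8 to 49.9 in Old ND, 46.2 to 47.3 in Old CR and 47.4 to 48.8 in Old CR-ND. Single genes of other lists moved with age too. The endothelial gene Tek rose by 1.02, 1.63 and 1.43 in Old ND, Old CR and Old CR-ND, and the macrophage receptor gene Csf1r fell by 1.20, 0.97 and 0.92. Cd68, another macrophage gene, rose by 1.03 in Old CR, and the follicle epithelium gene Sox9 rose by 0.91 in Old ND. Among 10 fibroblast genes the collagen gene Col1a1 fell in all 3 old groups by 0.48, 0.50 and 0.41. Another collagen gene, Col3a1, fell in Old CR by 0.35 and in Old ND by 0.27, and Cd34 fell in Old ND by 0.30. None of the 10 passed as higher. Against Young ND, 5 of the 10 lay above 0 for Old ND, 6 for Old CR and 4 for Old CR-ND. Summed over the 10, Young ND had 107.8 to 109.8. The old groups overlapped it, with 107.4 to 109.5 (Old ND), 107.6 to 110.0 (Old CR) and 107.2 to 109.7 (Old CR-ND). The summed level of 8 endothelial genes (37.8 to 40.6 in Young ND, 37.9 to 42.0 in the old groups) and of 11 leukocyte genes (56.3 to 58.3 and 56.0 to 59.3) overlapped between young and old. The part of cells of these kinds in the differences below was not tested. One array, Old ND replicate 2, stood apart: its dim genes read high, by 0.11 on average for genes below the median level, and it was the highest Old ND array for 9 of 17 mitosis genes.

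Of the members, a few replication genes and, among the mitosis genes, only Cdc20 were higher in old than in Young ND fibroblasts. In Old ND against Young ND, Pcna, Rfc3 and Uhrf1 rose and Tyms fell, 4 of 22 replication genes, and Cdc20 rose, 1 of 17 mitosis genes, where 10.9% of all 17097 genes passed (4.45% higher and 6.49% lower). At an unadjusted p under 0.05, which 23% of all genes reached, stood 9 of 22 replication genes and 1 of 17 mitosis genes. In Old CR against Young ND, Mcm4, Pcna, Rrm1 and Rfc3 rose, 4 of 22, where 12.7% of all genes passed (7.11% higher, 5.56% lower), and 0 of 17 mitosis genes passed in limma. At an unadjusted p under 0.05, which 24.5% of all genes reached, stood 7 of 22 replication genes, all higher, and 2 mitosis genes, 1 higher and 1 lower. In Old CR-ND against Young ND, Mcm4 and Rrm1 rose, 2 of 22, and Cdc20 rose, 1 of 17, where 7.04% of all genes passed (3.22% higher, 3.82% lower), and 9 of 22 and 1 of 17 had an unadjusted p under 0.05, against 19.2% of all genes. Passing means an adjusted p under 0.05 in limma, Benjamini-Hochberg over all genes, with 5 arrays per group. The 3 comparisons share the Young ND arrays and are not independent of each other. Over the 3 of them, 6 replication genes and 1 mitosis gene passed at least once, and the other 16 replication and 16 mitosis genes did not with all arrays in. Single arrays weigh on these counts: in Old ND, leaving out Old ND replicate 1 lost all 4 replication calls, while Mcm4 and Rrm1 passed instead. Of the 4, only Rfc3 was kept without Young ND replicate 2 and only Pcna without Young ND replicate 5, where Mcm4 passed as well. Without Young ND replicate 1 Rfc3 and Uhrf1 were kept and Ccnd1 passed as well, and without Old ND replicate 2 Pcna and Tyms were kept. The 2 calls in Old CR-ND became 4, with Mcm2 and Pcna added, without Old ND replicate 2, which enters only through the shared spread.

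The smaller differences of the replication genes leaned upward. Their median difference from Young ND was 0.18 in Old ND, 0.13 in Old CR and 0.18 in Old CR-ND, against 0.00 over all genes in each. Under other settings they ran from 0.14 to 0.23 in Old ND, from 0.07 with every probe set counted to 0.21 with genes above the median level in Old CR, and from 0.10 in the second run alone to 0.20 in Old CR-ND. By more than 0.005, 18 of 22 were above Young ND in all 3 old groups, as were 30.1% of all genes, and Rrm2 equalled Young ND in Old CR-ND. The medians of the mitosis genes were 0.01, -0.07 and 0.02, with 4 genes above and 3 below Young ND in all 3, where 30.2% of all genes were below. Array by array, the mean deviation of the 22 replication genes from their 20-array means lay between -0.18 and -0.08 in the Young ND arrays and between -0.08 and 0.15 in the 15 old arrays. That of the 17 mitosis genes lay between -0.06 and 0.02 in Young ND and between -0.11 and 0.18 in the old arrays.

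**Figure D1:**
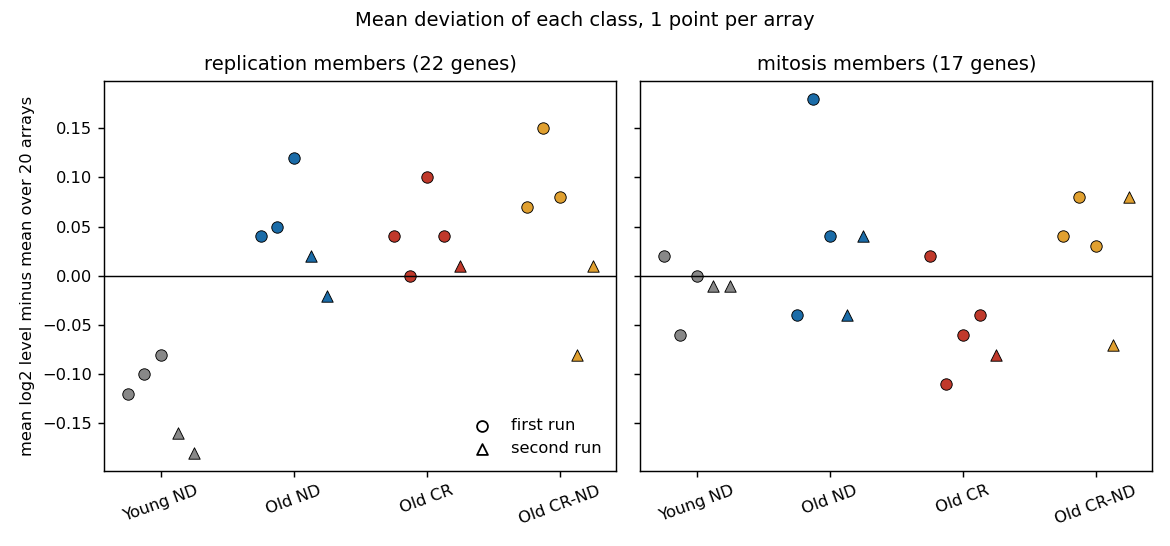
Mean deviation of the replication genes (left, 22 genes) and the mitosis genes (right, 17 genes) from their means over 20 arrays, in log2 units, 1 point per array by group; circles are arrays of the first array-number run and triangles of the second. For replication genes the Young ND arrays lie from -0.18 to -0.08 and no old array lies below -0.08, while for mitosis genes they lie within the spread of the other groups. The highest mitosis point, 0.18, is Old ND replicate 2.

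Among the helicase genes, Mcm4, a subunit of the MCM ring (chr16:15623897-15637400 on GRCm38.p6, probe set 1416214_PM_at), was the member that passed. Mcm4 read 6.21, 6.19, 6.18, 6.08 and 6.49 in the Young ND arrays and 6.29, 6.41, 6.52, 6.68 and 6.52 in Old ND. It read 6.28, 6.50, 6.58, 6.70 and 6.46 in Old CR and 6.64, 6.58, 6.64, 6.56 and 6.55 in Old CR-ND. Every Old CR-ND array lay above every Young ND array, whereas 1 Young ND array, at 6.49, lay within the range of Old ND and Old CR. Mcm4 rose by 0.36 ± 0.09 (SE) in Old CR-ND (1.29-fold, adjusted p = 0.0109, limma) and by 0.27 ± 0.09 in Old CR (adjusted p = 0.0388). The difference of Old ND, 0.25 ± 0.09, did not pass (adjusted p = 0.063). The call in Old CR is fragile: it was lost in 14 of 34 other settings, among them leaving out any of the Young ND replicates 1 to 4 (adjusted p up to 0.109).

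The other MCM and licensing genes did not pass. Mcm2 had means of 5.15 ± 0.05 (SD, n = 5) in Young ND, 5.35 ± 0.18 in Old ND, 5.28 ± 0.12 in Old CR and 5.41 ± 0.11 in Old CR-ND, and its Old CR-ND arrays (5.28 to 5.54) did not overlap the Young ND arrays (5.11 to 5.23), with an adjusted p of 0.0693. Groups did not overlap for 6.59% of all genes in that comparison, for 7.38% in Old ND and for 10.4% in Old CR against Young ND. Cdc6, which loads the helicase, read 3.67 ± 0.10 in Young ND and 3.89 ± 0.13 in Old ND without overlap (3.80 the lowest Old ND array, 3.79 the highest Young ND array) at an adjusted p of 0.0857, and it lay below the lower quartile of gene levels. Mcm3 (6.30 in Young ND against 6.32 to 6.47 in the old groups), Mcm6 (4.16 against 4.31 to 4.36) and Mcm7 (6.80 against 7.01 to 7.18) had higher means in each old group. Mcm5 did not follow them, with 6.20 in Young ND, 6.21 in Old ND, 5.99 in Old CR and 6.34 in Old CR-ND. Cdc45, which activates the helicase, read 4.98 in Young ND and 5.11 to 5.12 in the old groups, and Gins2, a subunit of GINS, 7.53 and 7.58 to 7.62.

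The clamp and its loader gave the most calls. Pcna, the sliding clamp (chr2:132249286-132253180, probe set 1417947_PM_at), was the brightest member. Pcna read 9.53, 9.83, 9.91, 10.13 and 10.05 in Young ND and 10.36, 9.98, 10.21, 10.53 and 10.30 in Old ND. It read 10.19, 10.34, 10.41, 10.30 and 10.40 in Old CR and 10.14, 10.29, 10.40, 10.28 and 10.04 in Old CR-ND. All 5 Old CR arrays were above all Young ND arrays, and the other old groups overlapped Young ND at the edge. Pcna rose by 0.44 ± 0.11 in Old CR (1.35-fold, adjusted p = 0.00842) and by 0.39 ± 0.11 in Old ND (1.31-fold, adjusted p = 0.0219, limma). In Old CR-ND the difference was 0.34 ± 0.11 and did not pass (adjusted p = 0.061). The Old ND call was lost on leaving out Young ND replicate 1 (0.30, adjusted p = 0.0654) or replicate 2 (0.0541), or Old ND replicate 1 (0.0514) or replicate 4 (0.065).

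Rfc3, a subunit of the clamp loader (chr5:151642817-151651208, probe set 1432538_PM_a_at), had the largest difference of any member. Rfc3 read 5.77, 6.07, 5.65, 5.40 and 5.68 in Young ND and 6.29, 6.24, 6.13, 5.98 and 6.16 in Old ND. It read 6.45, 6.44, 6.52, 6.54 and 5.93 in Old CR and 6.42, 6.09, 6.03, 5.92 and 5.78 in Old CR-ND. In Old CR 4 arrays sat close together above every Young ND and Old ND array, and the 1 array of the second array-number run sat below them at 5.93. Rfc3 rose by 0.66 ± 0.13 in Old CR (1.58-fold, adjusted p = 0.00159) and by 0.45 ± 0.13 in Old ND (1.36-fold, adjusted p = 0.0302, limma). The Old CR-ND difference was 0.33 ± 0.13 (adjusted p = 0.146). The call of Rfc3 in Old ND was lost when Young ND replicate 3, 4 or 5 was left out, and when Old ND replicate 1 or 2 was (adjusted p 0.0601 to 0.0877). A second, dimmer probe set of Rfc3 differed from Young ND by 0.14 in Old ND. In Old CR that probe set differed by 0.10, and neither value passed.

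Rfc4, another loader subunit, had 7.93 ± 0.16 in Young ND and 8.11 to 8.14 in the old groups and did not pass. Fen1, the nuclease that trims Okazaki fragments, was among the dimmest members at 3.36 in Young ND and 3.44 to 3.47 in the old groups.

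Of the nucleotide-supplying enzymes, Rrm1, the large subunit of ribonucleotide reductase (chr7:102441695-102469771, probe set 1415878_PM_at), rose. Rrm1 read 7.47, 7.40, 7.41, 7.48 and 7.19 in Young ND and 7.42, 7.57, 7.49, 7.85 and 7.83 in Old ND. It read 7.71, 7.77, 7.87, 7.71 and 7.90 in Old CR and 7.70, 7.69, 7.91, 7.73 and 7.78 in Old CR-ND. Both groups with a period of restriction lay wholly above Young ND, and the Old ND arrays were split, 3 near Young ND and 2 near the other old groups, the 2 high ones being those of the second array-number run. Rrm1 rose by 0.40 ± 0.08 in Old CR (1.32-fold, adjusted p = 0.00279) and by 0.37 ± 0.08 in Old CR-ND (1.29-fold, adjusted p = 0.0084, limma). The Old ND difference was 0.24 ± 0.08 (adjusted p = 0.0744), and neither restricted group passed against Old ND (0.16 ± 0.08, 95% interval -0.02 to 0.34 in Old CR, and 0.13 ± 0.08, interval -0.05 to 0.31 in Old CR-ND). A second probe set of Rrm1 differed by 0.59 in Old CR (adjusted p = 0.0148 over all probe sets) and by 0.20 in Old CR-ND (adjusted p = 0.56). The gene of the small subunit, Rrm2, read 5.47 in Young ND and 5.47 to 5.64 in the old groups and did not pass.

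Tyms, thymidylate synthase (chr5:30038546-30073645, probe set 1424991_PM_s_at), was the replication gene that fell. Tyms read 7.84, 7.81, 7.64, 7.61 and 7.72 in Young ND and 6.91, 7.55, 7.58, 7.44 and 7.36 in Old ND. In Old CR it read 7.67, 7.53, 7.57, 7.61 and 7.46 and in Old CR-ND 7.67, 7.76, 7.77, 7.38 and 7.56. Old ND and Young ND did not overlap, and 1 Old ND array, at 6.91, lay well below the rest. Tyms fell by 0.36 ± 0.10 on the log2 scale in Old ND (1.28-fold, adjusted p = 0.0306, limma). Without that array the difference was -0.24 and did not pass (adjusted p = 0.0731), and the mean of the 5 probe sets of Tyms differed by -0.01 (adjusted p = 0.952), 3 of the other 4 probe sets having differences above 0. The differences of Old CR, -0.16 ± 0.10, and Old CR-ND, -0.10 ± 0.10, did not pass.

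Uhrf1, which brings DNA methylation to newly copied strands (chr17:56303337-56323486, probe set 1415811_PM_at), rose in Old ND. Uhrf1 read 5.39, 5.35, 5.38, 5.38 and 5.23 in Young ND and 5.76, 5.76, 5.66, 5.42 and 5.62 in Old ND. It read 5.50, 5.39, 5.25, 5.42 and 5.43 in Old CR and 5.41, 5.84, 5.42, 5.32 and 5.39 in Old CR-ND. The lowest Old ND array, 5.42, lay just above the highest Young ND array, 5.39, while both other old groups overlapped Young ND and 1 Old CR-ND array stood out at 5.84. Uhrf1 rose by 0.30 ± 0.09 in Old ND (1.23-fold, adjusted p = 0.0309, limma), a call lost without Old ND replicate 1, 2 or 3 or Young ND replicate 2 or 5 (adjusted p up to 0.083). Between Old CR and Old ND it differed by -0.25 ± 0.09, the smallest adjusted p of any member between old groups and yet not past the threshold (0.164).

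The G1 cyclins, which promote the entry into S phase, did not pass with all arrays in any of the 6 comparisons. Ccnd1 passed in Old ND without Young ND replicate 1 (0.56, adjusted p = 0.0327, limma). In the second array-number run alone, which holds 1 Old CR array, its difference in Old CR against Young ND was 0.94. Ccnd1 had 9.82 ± 0.47 in Young ND and means of 10.06 to 10.20 in the old groups, and Ccnd2 had 9.55 ± 0.39 and 9.44 to 9.65. These 2 bright genes had the widest spread within groups of all members, with pooled SDs of 0.32 and 0.44. Ccne1, the cyclin partner of Cdk2, read 6.73 ± 0.05 in Young ND and 6.82 to 6.90 in the old groups, and Ccne2 lay near the bottom of the scale at 3.02 to 3.09. Slbp, the histone mRNA binding protein made in S phase, read 8.75 ± 0.33 in Young ND and 9.04 to 9.05 in the old groups and did not pass, while a second probe set of Slbp rose by 1.01 in Old ND (adjusted p = 0.0039 over all probe sets).

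**Figure D2:**
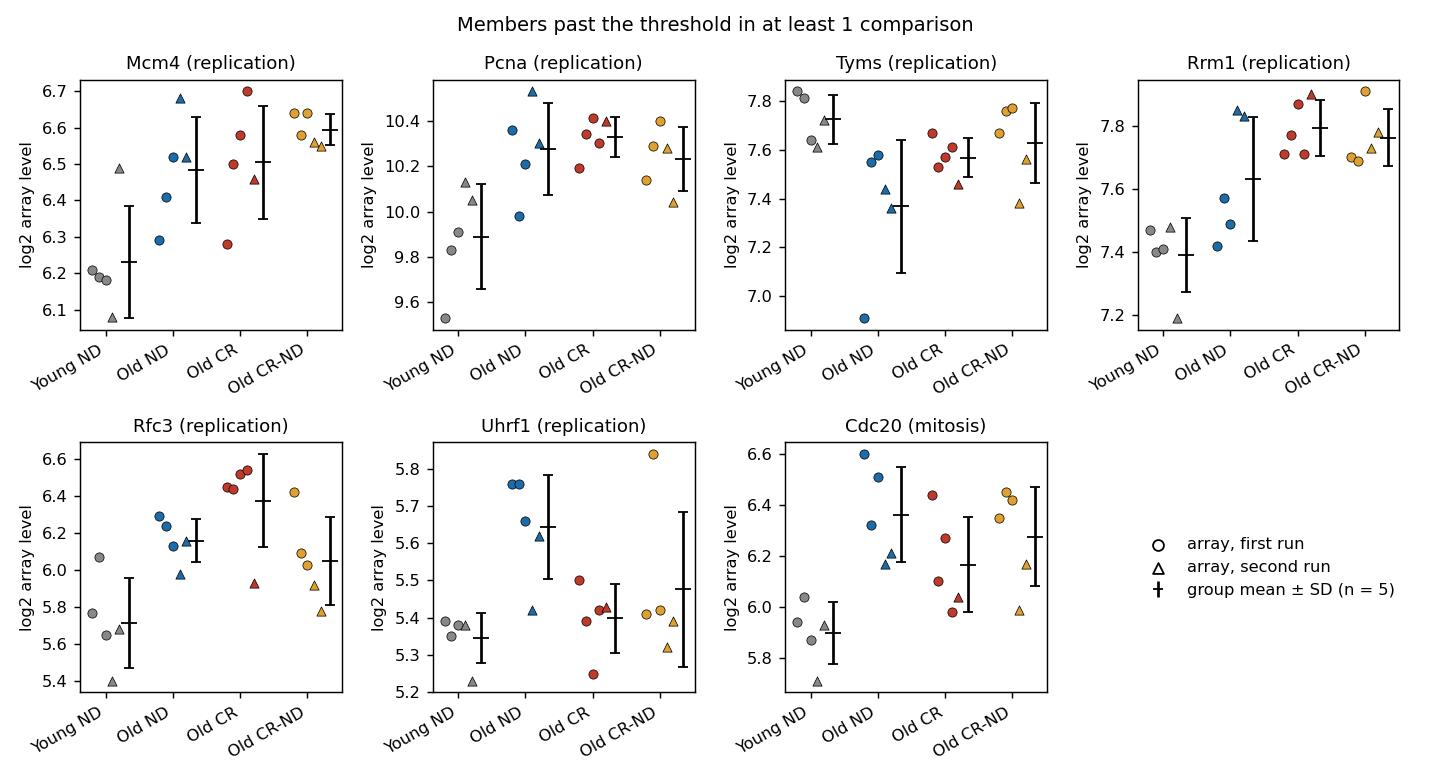
Log2 array level of the 7 members that passed in at least 1 comparison, by group, with 1 point per array (circle, first array-number run; triangle, second) and the group mean ± SD of 5 arrays beside the points; each panel has its own axis, which does not start at 0. Tyms is lowest in Old ND, Uhrf1 is highest in Old ND apart from 1 Old CR-ND array at 5.84, and in the other 5 panels the Young ND mean is the lowest.

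Among the mitosis genes Cdc20, the activator of the anaphase-promoting complex (chr4:118432901-118437343, probe set 1416664_PM_at), was the exception. Cdc20 read 5.94, 6.04, 5.87, 5.71 and 5.93 in Young ND and 6.60, 6.32, 6.51, 6.17 and 6.21 in Old ND. It read 6.44, 6.10, 6.27, 5.98 and 6.04 in Old CR and 6.35, 6.45, 6.42, 5.99 and 6.17 in Old CR-ND. Old ND lay wholly above Young ND, and 1 Young ND array, at 6.04, reached into the other old groups. Cdc20 rose by 0.46 ± 0.11 in Old ND (1.38-fold, adjusted p = 0.00613) and by 0.38 ± 0.11 in Old CR-ND (1.3-fold, adjusted p = 0.0346, limma), and its difference in Old CR was 0.27 ± 0.11 (adjusted p = 0.115). Leaving out Young ND replicate 1, 3, 4 or 5 or Old CR-ND replicate 1, 2 or 3 lost the call of Cdc20 in Old CR-ND (adjusted p 0.0535 to 0.103). The Old ND call held without each of the 20 arrays in turn. Ube2c, the ubiquitin-conjugating enzyme of the same complex, read 6.83 in Young ND and 6.78 to 6.83 in the old groups.

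The proliferation markers and mitotic cyclins showed no passing difference with age. Mki67, the Ki-67 antigen, read 5.20, 5.16, 4.97, 5.12 and 5.37 in Young ND and 5.05, 5.46, 5.23, 5.08 and 5.23 in Old ND. It read 4.98, 4.84, 4.96, 5.11 and 5.10 in Old CR and 5.01, 5.08, 5.09, 5.07 and 5.19 in Old CR-ND. The groups overlapped, with Old CR the lowest in mean, and the 95% interval of Old ND minus Young ND was -0.13 to 0.22. Ccnb2, cyclin B2, read 4.79, 4.61, 5.04, 5.01 and 4.80 in Young ND and 4.90, 4.70, 4.88, 4.93 and 4.83 in Old ND. It read 4.70, 4.59, 4.58, 4.78 and 4.76 in Old CR and 4.78, 5.04, 4.85, 4.84 and 4.88 in Old CR-ND. Its lowest mean was in Old CR as well, and its highest Old CR array only touched the lowest Old CR-ND array, at 4.78. Ccna2, cyclin A2, read 5.62, 5.42, 5.20, 5.22 and 5.37 in Young ND and 5.38, 6.01, 5.43, 5.39 and 5.43 in Old ND. It read 5.58, 5.26, 5.36, 5.24 and 5.17 in Old CR and 5.72, 5.65, 5.62, 5.35 and 5.47 in Old CR-ND. Old ND replicate 2, at 6.01, was far above the other arrays of its group, and the groups overlapped.

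Cdk1, the kinase that drives entry into mitosis, read 6.62, 6.43, 6.48, 6.26 and 6.45 in Young ND and 6.49, 6.77, 6.62, 6.64 and 6.49 in Old ND. It read 6.57, 6.29, 6.36, 6.47 and 6.50 in Old CR and 6.59, 6.39, 6.51, 6.38 and 6.71 in Old CR-ND. Its groups overlapped, and the interval of Old ND minus Young ND was -0.02 to 0.32. Aurkb, the kinase of the chromosomal passenger complex, read 4.97, 4.59, 5.01, 4.92 and 4.97 in Young ND and 4.59, 4.92, 4.83, 4.91 and 5.43 in Old ND. It read 4.87, 4.52, 4.59, 4.91 and 4.90 in Old CR and 4.84, 4.97, 5.03, 5.00 and 5.43 in Old CR-ND. Single arrays at 5.43 stood out in both Old ND and Old CR-ND. Of the other genes, Top2a, which untangles sister chromatids, had group means of 4.41 to 4.50, and the spindle checkpoint kinases Bub1 and Bub1b had 3.50 to 3.61 and 5.57 to 5.65. The kinases Aurka and Plk1 had 5.78 to 5.92 and 4.85 to 4.98, and Birc5, a partner of Aurkb, 5.35 to 5.44. Tpx2 and Kif11, which build the spindle, had 4.54 to 4.77 and 4.63 to 4.79, and the kinetochore genes Cenpe and Cenpf had 5.72 to 5.82 and 4.88 to 5.02.

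The width of the intervals limits what these missing calls say. For 16 of 17 mitosis genes in Old ND against Young ND, all 17 in Old CR against Young ND and 16 of 17 in Old CR-ND against Young ND, the 95% interval of the difference lay within 0.5 either way, which is 1.41-fold. That was so for 15, 15 and 14 of the 22 replication genes and for 77.7%, 76.6% and 80.7% of all genes, and all 39 genes had intervals within 1, which is 2-fold, in each of these comparisons. The precision is limited by the number of arrays. Dim probe sets can give narrow intervals as well. Ptprc, which was sorted against and had 3.26 in Old ND and 3.25 in Young ND, had an interval of -0.11 to 0.14. Only 3 of 17 mitosis genes lay above the median gene, so a narrow interval of a dim gene need not bound the change of its RNA.

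**Figure D3:**
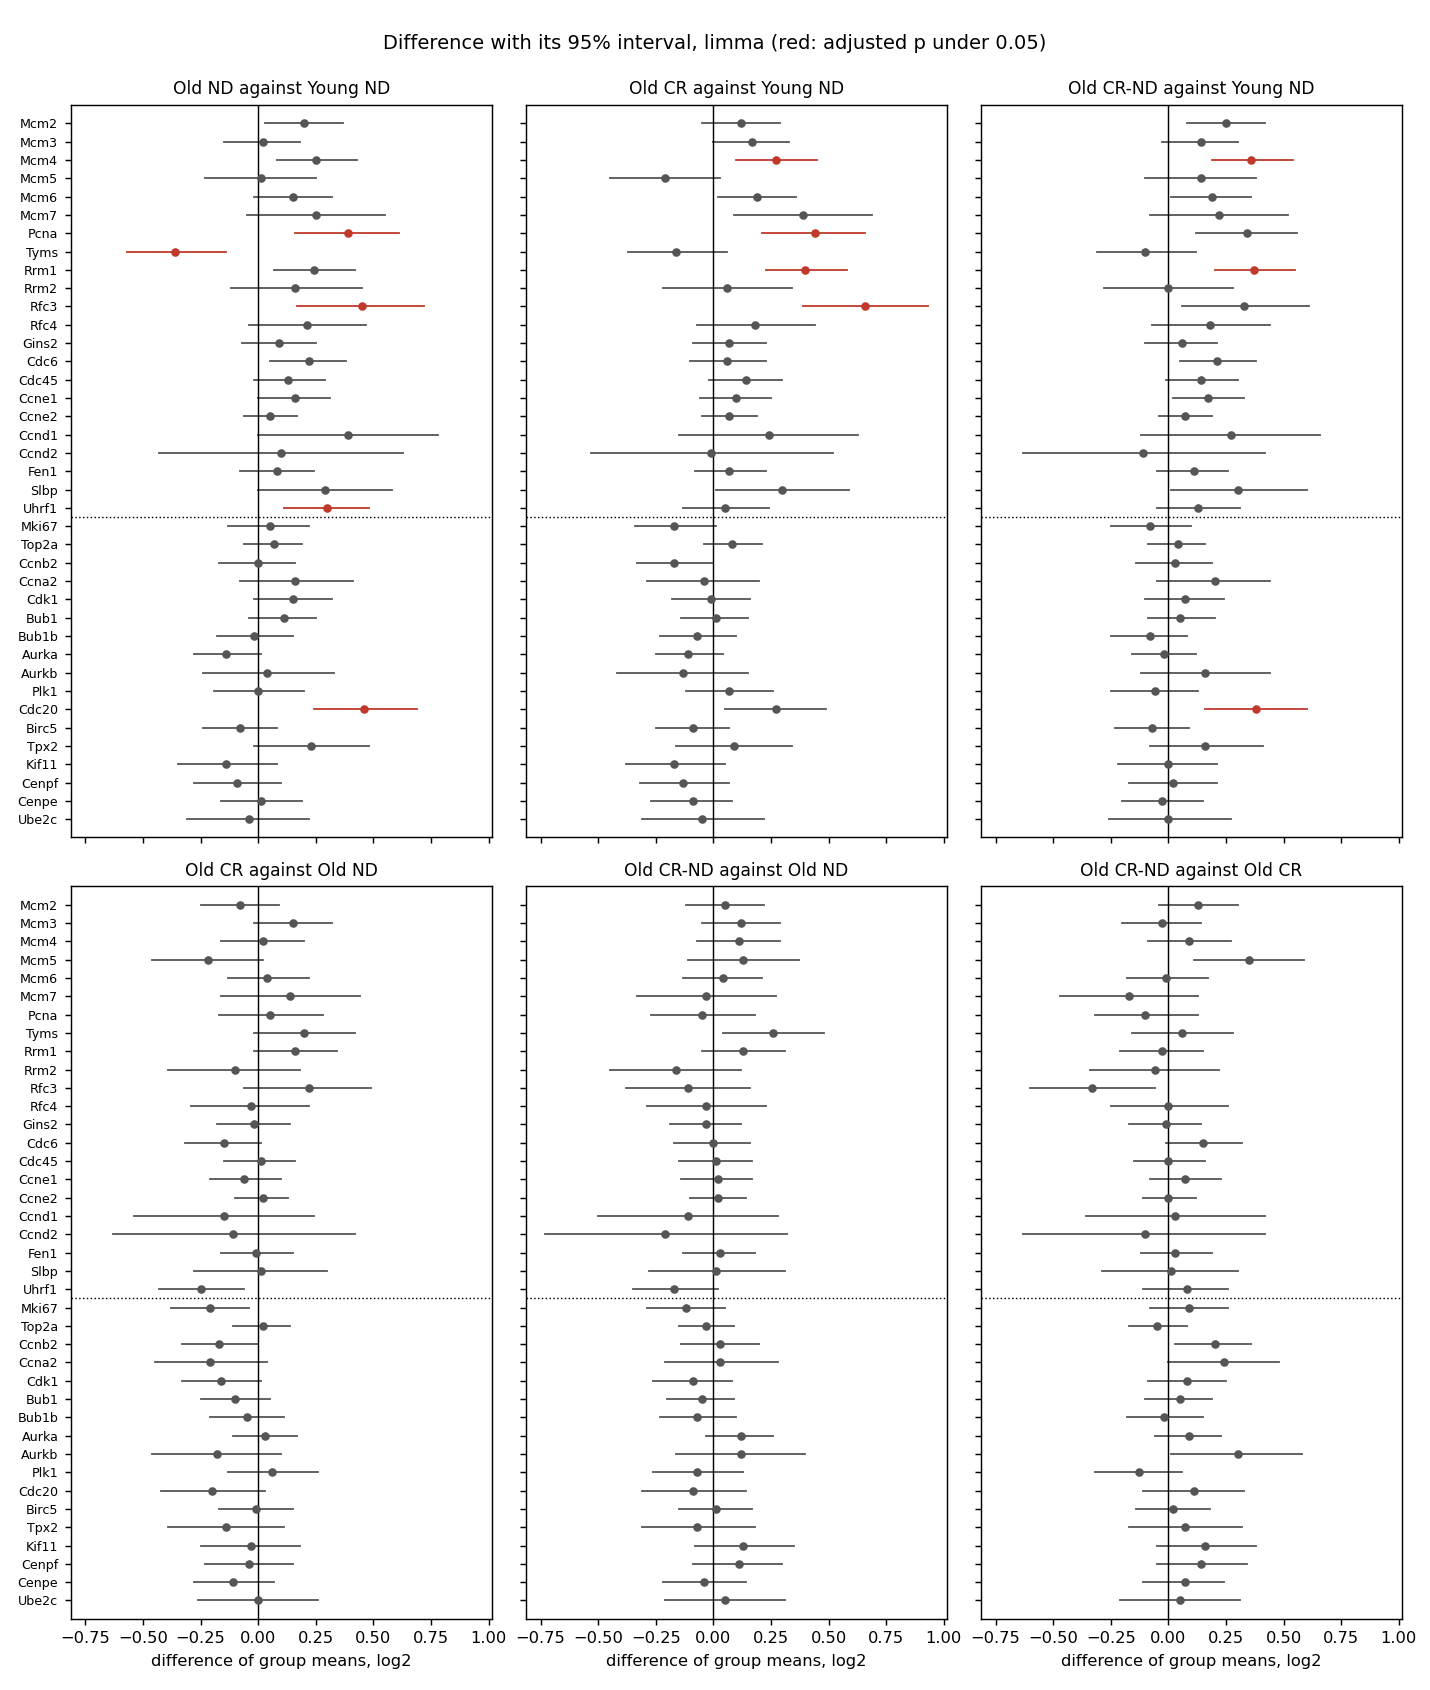
Difference of group means in log2 units with its 95% interval from limma for each of the 39 genes (replication above the dotted line, mitosis below it) in the 6 comparisons; red marks an adjusted p under 0.05. Red points occur only in the upper panels, against Young ND, and the widest intervals belong to Ccnd1 and Ccnd2.

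Diet made no passing difference to any member among the old mice. In Old CR against Old ND, 0 of 22 replication and 0 of 17 mitosis genes passed in limma, where 2.39% of all genes did (1.57% higher and 0.819% lower). At an unadjusted p under 0.05, reached by 14.5% of all genes, there were 1 lower replication gene, Uhrf1, and 2 lower mitosis genes, Mki67 (-0.21 ± 0.08, adjusted p = 0.213) and Ccnb2 (-0.17 ± 0.08, adjusted p = 0.344). The median difference was 0.00 for replication genes and -0.10 for mitosis genes, 14 of 17 of which were below 0, against a median of 0.00 over all genes. Leaving out 1 array gave mitosis medians from -0.13, without Old ND replicate 4, to -0.06, without Old ND replicate 2. Old ND replicate 2 is the array whose dim genes read high. Of the 10 follicle epithelium genes, Sox9 fell by 0.92 in Old CR against Old ND (adjusted p = 0.0349), 4 lay above 0 and 6 below, and their median was -0.10. Sox9 read 5.28 in Young ND, 6.19 in Old ND and 5.27 in Old CR. Without Sox9 the sum of the other 9 was 41.0 to 42.0 in Old CR and 41.1 to 44.0 in Old ND. It was 42.2 to 43.4 in Young ND and 41.6 to 43.1 in Old CR-ND. Old CR thus lay wholly below Young ND in this sum and overlapped the other old groups. Kcnj8 rose by 1.29 (adjusted p = 0.0156). The part of such cells in the difference of the mitosis genes was not tested. For no member did the arrays of the groups fail to overlap, where 3.23% of all genes had groups without overlap. The intervals of all 17 mitosis genes and of 20 of 22 replication genes lay within 0.5 either way, as did those of 84.1% of all genes.

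The Old CR-ND mice, back on a normal diet for their last 2 months, likewise showed no passing member. In Old CR-ND against Old ND, 0 of 22 and 0 of 17 members passed in limma, where 0.00585% of all genes passed, which is 1 gene. The members with an unadjusted p under 0.05, against 5.08% of all genes, were 1 replication gene, Tyms (0.26 ± 0.10, adjusted p = 0.918), and 0 mitosis genes. Medians were 0.01 and -0.03. In Old CR-ND against Old CR, again 0 and 0 passed, where 0.333% of all genes did (0.123% higher, 0.211% lower). At an unadjusted p under 0.05, reached by 9.79% of all genes, stood Mcm5 (0.35 ± 0.12, adjusted p = 0.237) and Rfc3 (-0.33 ± 0.13, adjusted p = 0.373) among replication genes, and Ccnb2 (0.20 ± 0.08, adjusted p = 0.384) and Aurkb (0.30 ± 0.14, adjusted p = 0.466) among mitosis genes. The mitosis median was 0.08, with 14 of 17 genes above 0, and that of replication genes 0.00. Without Old CR replicate 2 the mitosis median was 0.05, and without Old CR-ND replicate 4 it was 0.11. No member had groups without overlap in either comparison, against 0.48% and 2.17% of all genes. These comparisons share the Old CR or Old ND arrays with the one before. Over the 3 comparisons between old groups the intervals of mitosis genes reached from -0.46 to 0.58 and those of replication genes from -0.73 to 0.59.

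**Figure D4:**
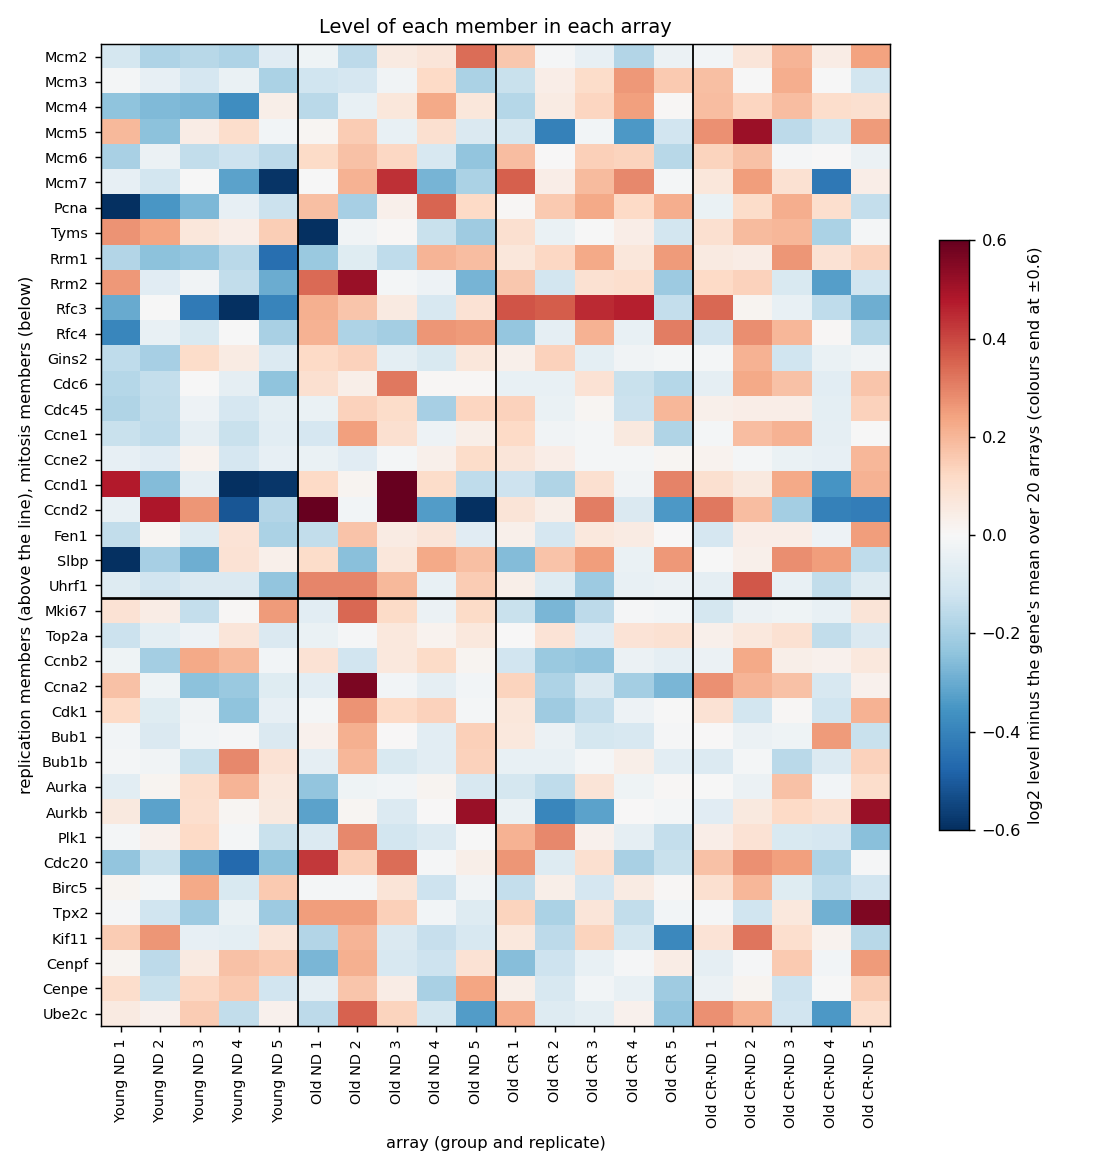
Log2 level of each of the 39 genes in each of the 20 arrays minus that gene's mean over the arrays, in colours that end at 0.6 either way, with replication genes above the line and mitosis genes below it and arrays in columns by group. The Young ND columns are mostly blue for replication genes, the exceptions including Tyms, and Old ND replicate 2 is red for most mitosis genes.

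Further genes of the same processes were read beside the share of all genes that passed, 10.9% in Old ND, 12.7% in Old CR and 7.04% in Old CR-ND against Young ND. Of 42 other replication genes measured, Lig1, the ligase that seals Okazaki fragments, rose in Old ND against Young ND (0.36 ± 0.09, adjusted p = 0.0112) and in Old CR-ND (0.52 ± 0.09, adjusted p = 0.000963), while Rfc5, a loader subunit, fell by 0.45 ± 0.09 in Old ND (adjusted p = 0.00297). In Old CR against Young ND, where 7.11% of all genes were higher and 5.56% lower, 4 of the 42 rose and 0 fell: Rfc1, the large loader subunit (0.43 ± 0.10, adjusted p = 0.00436), Rpa1 (0.35 ± 0.11, 0.0318) and Rpa2 (0.38 ± 0.12, 0.0373), which coat single-stranded DNA, and the maintenance methyltransferase Dnmt1 (0.28 ± 0.07, 0.0099). Rfc1 also rose in Old CR-ND (0.36 ± 0.10, adjusted p = 0.0224). The clamp loader thus had genes in both directions, with Rfc1 and Rfc3 higher and Rfc5 lower in at least 1 old group.

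Of 51 other mitosis genes measured, Espl1, which encodes separase, the protease that frees sister chromatids, fell in all 3 old groups against Young ND, by 0.55 ± 0.08 in Old ND (adjusted p = 9.52e-05), 0.71 ± 0.08 in Old CR (5.65e-06) and 0.40 ± 0.08 in Old CR-ND (0.00343). Smc2, a condensin subunit, fell by 0.28 ± 0.08 in Old CR (adjusted p = 0.0302), and none of the 51 rose in limma, with 4, 3 and 2 of them higher at an unadjusted p under 0.05, where 10.3%, 13.6% and 9.48% of all genes were. Of 24 transcription regulators of the cell cycle, Tfdp1, the partner of the E2F factors, fell by 0.35 ± 0.09, 0.58 ± 0.09 and 0.39 ± 0.09 in the 3 old groups (adjusted p 0.0177, 0.000266 and 0.0144). Mycn rose in Old ND (0.32 ± 0.10, adjusted p = 0.0456) and Lin54, a DREAM subunit, in Old CR (0.33 ± 0.10, adjusted p = 0.0376). Between old groups no gene of these 3 lists passed in limma. The smallest adjusted p there belonged to Pola2, a subunit of the DNA polymerase alpha-primase complex (0.33 ± 0.09 in Old CR against Old ND, adjusted p = 0.062). At an unadjusted p under 0.05 in that comparison 9 of the 42 replication genes and 9.46% of all genes were higher, and 6 of the 51 mitosis genes and 5.02% of all genes lower.

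The size of the spread of the members within groups was like that of other genes. Their median within-group SD was 0.14 for replication and 0.13 for mitosis genes, against 0.15 over all genes, and the median range of the 4 group means was 0.23, 0.14 and 0.18. Taken as residuals from the group means over 20 arrays, pairs of replication genes had a median correlation of 0.05 (231 pairs) and pairs of mitosis genes 0.09 (136 pairs), against 0.00 over all pairs of genes, as a description of arrays that share their normalization. Correlations above 0.5 made up 8.23%, 11% and 6.48% of these pairs. With the array-number run taken out as well, the medians were 0.03, 0.12 and 0.00 and the shares 4.33%, 9.56% and 5.55%. Of 23 members with several probe sets, the probe sets had 1 sign in 13 for Old ND, 15 for Old CR and 12 for Old CR-ND against Young ND.

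The array numbers in the titles form 2 runs, 13 arrays in the first and 7 in the second, with 4 and 1 arrays of Old CR and 3 and 2 of each other group. What the runs stand for is not stated. In limma with groups held constant, Mcm6, Mcm7, Rrm2, Rfc3 and Ccnd2 (by 0.17 to 0.66) and Cdc20 and Ube2c (by 0.23 and 0.24) were lower in the second run, 5 of 22 and 2 of 17, and no member was higher, where 17.2% of all genes differed (5.73% higher and 11.4% lower). With the run as a block, the differences of Rfc3 were 0.60 in Old CR and 0.45 in Old ND, and those of Cdc20 0.46 in Old ND and 0.38 in Old CR-ND, and all 4 passed. All 12 passing differences had the same sign within each run. In the first run alone 9 of the 12 passed, and in the second run, with 2 arrays per group and 1 of Old CR, assumed to vary like the others, none of them did.

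The mean of the 3 old groups was also set against Young ND, a comparison chosen after the values were seen. Mcm4 (0.30 ± 0.07, adjusted p = 0.00559), Pcna (0.39 ± 0.09, 0.00403), Rrm1 (0.34 ± 0.07, 0.0018) and Rfc3 (0.48 ± 0.11, 0.00357) rose, 4 of 22 replication genes, and Cdc20 (0.37 ± 0.09, 0.00575) rose, 1 of 17 mitosis genes, where 14.6% of all genes passed in limma (7.18% higher and 7.46% lower). Tyms (-0.20 ± 0.09, adjusted p = 0.129) and Uhrf1 (0.16 ± 0.07, adjusted p = 0.157) did not pass in it. The counts of members are to be read beside the share of all genes, and the lists were not tested as lists.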

How the data were processed

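The authors deposited log2 expression values per probe set of an Affymetrix mouse array, 45141 probe sets in 20 arrays, between 2.71 and 13.46. They were made with RMA of the affy package, per the submitters' processing notes, with versions not given in the sources used here. RMA sets all arrays to 1 distribution (medians 5.27 to 5.34), so a shift common to most genes would not be seen. No column was left out, and no pair of arrays was identical.

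Probe sets naming 1 gene (28898) were kept, and those naming several (551) or none (15692) were left out. Symbols were updated through Entrez numbers against RefSeq of GRCm38.p6 (28689 matched), and the probe set with the highest mean was taken for each of 17097 genes. A limma model (version 3.58.1, R 4.3.3) with 1 mean per group was fitted to all 20 arrays together, with 16 residual and 4.19 prior degrees of freedom. Its moderated tests, two-sided, were adjusted by Benjamini-Hochberg over all genes at a threshold of 0.05 in 6 comparisons. No dim gene was filtered out. Errors are limma's standard errors unless marked SD, and the median standard error was 0.10. Replicates were numbered in accession order within a group.

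The members, the lists of other genes and the tests were chosen with earlier results of these data known. Members past the threshold are given array by array, each class filled to 6 by smallest p. From other lists up to 4 passing genes per comparison are named, or the smallest p. The alternatives were only the 2 groups compared, the run as a block, each run alone, other choices of probe set, further quantile normalization or centring, filters on dim genes, eBayes with trend and robust, array weights, other thresholds and each array left out. The fit was tested on simulated data. Promoter windows were searched for exact letters.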

Additional observations from a re-analysis of the deposited data

Results flagged for a closer look

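In 9 of 156 sets of 5 arrays (39 genes in 4 groups) 1 array lay far from the other 4 by Dixon's test at 95%, a number close to the 1 in 20 that chance gives. Old ND replicate 2 was the high array for Ccna2 (6.01, the others 5.38 to 5.43), Plk1 (5.20, the others 4.80 to 4.91) and Kif11 (4.92, the others 4.54 to 4.63). It is the array whose dim genes read high, and the counts of passing mitosis genes were the same without it.

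Young ND replicate 5 was the low array for Rrm1 (7.19, the others 7.40 to 7.48) and Uhrf1 (5.23, the others 5.35 to 5.39), both genes with a call against Young ND. Without it the Rrm1 calls held and the Uhrf1 call did not (0.27, adjusted p = 0.083, limma). In Young ND replicate 2 Aurkb was low at 4.59 (the others 4.92 to 5.01).

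Rfc3 was low in Old CR replicate 5 at 5.93 (the others 6.44 to 6.54), the 1 Old CR array of the second run. Old CR-ND replicate 2 was high for Uhrf1 at 5.84 (the others 5.32 to 5.42), and Old CR-ND replicate 5 for Ccne2 at 3.27 (the others 3.02 to 3.09), a gene at the bottom of the scale. What sets these arrays apart was not tested.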

How the results depend on the processing

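Apart from leaving out arrays, the counts of passing members stayed within 1.5 times in 156 cases under a single change of setting and moved further in 14. No passing difference changed sign in these settings. With every probe set counted, however, each gene was read from its probe set with the smallest adjusted p. That choice cannot show probe sets of the other sign, which Tyms had. The mean of the Tyms probe sets differed by -0.01 in Old ND against Young ND. Most of the 156 were counts of 0 that stayed 0, those between old groups and of mitosis genes in Old CR against Young ND. The 156 also take in the mean of the 3 old groups against Young ND. That is another comparison, counted here as a setting of Old ND against Young ND. All 14 that moved were among the counts that had a call. For replication genes in Old ND against Young ND, 4 calls became 2 with only the 2 groups compared, 1 in the first run, 0 in the second run, 0 at an adjusted p of 0.01 and 7 at 0.10, and 1 to 5 on leaving out an array. In Old CR-ND against Young ND, 2 calls became 5 with the run as a block, 4 with array weights, 0 in the second run, 1 at 0.01 and 4 at 0.10, and 2 to 4 on leaving out an array. In Old CR against Young ND, 4 calls became 1 in the second run, which was Ccnd1 and none of the 4, and 3 to 4 on leaving out an array. For mitosis genes in Old CR-ND against Young ND, the 1 call, Cdc20, was lost in the second run (0) and at 0.01 (0), and the count ran over 0 to 1 on leaving out an array. In Old ND against Young ND it was lost in the second run (0). The second run has 2 arrays per group and 1 of Old CR. The comparisons between old groups gave 0 members under every alternative tried. The mean of the old groups and the effect of the run were added after seeing the data. No paired analysis was possible because the labels give no replicate numbers shared between groups. With 5 arrays per group, differences under about the intervals given, and any shift shared by most genes, could not be seen.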

Other observations

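Genes that act side by side at the end of mitosis differed in direction with age. Espl1, which encodes separase, had means of 5.24 in Young ND, 4.69 in Old ND, 4.53 in Old CR and 4.84 in Old CR-ND, while Cdc20, which acts just before it at the onset of anaphase, was higher in Old ND and Old CR-ND than in Young ND. In Old CR-ND the Espl1 mean was above that of Old CR by 0.31 ± 0.08 without overlap of the arrays, a difference that did not pass (adjusted p = 0.112, limma), in a comparison where 2.17% of all genes had groups that did not overlap. Tfdp1 had 7.88 in Young ND, 7.53 in Old ND, 7.31 in Old CR and 7.50 in Old CR-ND. These genes were singled out after their values were seen.

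The motif letters of the genes that passed were of several kinds. Of the 7 members with a call, Rfc3 and Uhrf1 had an E2F match in a window from 250 bases before to 50 after a start, Cdc20 had a CHR match, Pcna and Rrm1 had CCAAT boxes alone, Tyms had no match and Mcm4 had no window.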
